A study of Mus musculus with 5 samples.

Results

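Hepatic stellate cells were taken from single-cell libraries of mouse liver non-parenchymal cells and were chosen by the raw molecules of a few genes in each cell, so the levels of those genes are no finding. A cell was a member with at least 3 molecules of Dcn, at least 3 of Reln, Colec11, Colec10 and Lrat together, at most 2 of the fibroblast genes Dpt, Mfap4 and Eln together, fewer than 10 of the endothelial genes Stab2 and Clec4g together and fewer than 10 of the Kupffer cell genes Clec4f, Cd5l and Vsig4 together. The rule found 728 cells among 17188 filtered cells, of 19815 deposited. They were 273, 270 and 94 cells in the libraries pIVCL 1, 2 and 3, and 65 and 26 cells in sham 1 and sham 2. All mice were wild-type males that had surgery when 9 weeks old, and their livers were taken 2 weeks afterwards. The pIVCL mice had a partial ligation of the inferior vena cava, which raises the venous pressure in the liver and models congestive hepatopathy, and the sham mice had an operation without it. After perfusion with pronase and collagenase, hepatocytes, dead cells and erythrocytes were depleted by centrifugation and the rest was captured on the BD Rhapsody system. The labels place sham 1, sham 2 and pIVCL 1 in batch 2021.3 and pIVCL 2 and pIVCL 3 in batch 2021.7, so that batch and surgery overlap in part. Each label names a mouse, but nothing states that the libraries came from different preparations, and p-values measure the spread between these 5 libraries only.

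Stellate cells are the pericytes of the liver sinusoid. They lie between endothelium and hepatocytes, store retinyl esters made by Lrat, and secrete Reln (reelin), the collectins Colec11 and Colec10, and the small proteoglycan Dcn (decorin). In injured liver they can turn into contractile, matrix-secreting myofibroblasts, marked by Acta2 (smooth muscle actin), Tagln and fibrillar collagens. Stellate cells at the portal side of the lobule are marked by Ngfr, Igfbp3 and Il34, and those at the central side by Adamtsl2 and Rspo3.

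Most stellate markers that the rule did not read were highest in the members. Level is given as CPM, molecules of a gene per 1000000 molecules of the summed cells. The pericyte regulator Rgs5 was at 1376 to 2975 CPM in the members of the 5 libraries, with a median of 1879. Its median was 61.0 CPM in the 163 fibroblast-rule cells (Dcn at least 3, Dpt, Mfap4 and Eln together at least 3) and 6.21 CPM in 8122 sinusoidal endothelial cells (Stab2 and Clec4g together at least 10, Dcn at most 2). The matrix glycoprotein Ecm1 had medians of 7375, 488 and 58.5 CPM in the same 3 sets. For Angptl6, a secreted angiopoietin-like protein, the medians were 1276, 12.2 and 2.20 CPM. Each of these genes was therefore highest in the members. The exceptions among the stellate markers were Cygb, Tcf21 and Pdgfrb, with higher medians in fibroblast-rule cells. Cygb had medians of 687 CPM in members and 867 CPM in fibroblast-rule cells, Tcf21 of 355 and 545 CPM, and Pdgfrb of 254 and 293 CPM. Nes was nearly equal in members and endothelial cells, with medians of 92.8 and 89.7 CPM. The intermediate filament gene Des (desmin), a stellate marker in rodents, was low at 74.4 to 98.3 CPM. Of 14 smooth muscle and pericyte markers 12 had molecules in the members and 10 were tested, of which 0 passed, with a median log2 fold change of pIVCL over sham of 0.32. They summed to 0.264 to 0.299% of member molecules in pIVCL, against 0.285 to 0.457% in sham. The contractile genes Cnn1 and Pln had 0 molecules in all 5 libraries. The fibroblast-rule cells also held mesothelial genes, with Msln (mesothelin) at 86.7 to 427 CPM and Upk3b at 223 to 895 CPM.

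The genes that the rule read are described here without a test. Dcn was at 14863, 21075 and 22419.5 CPM in pIVCL cells, against 15495 and 9618 CPM in sham cells. Reln was at 4383, 4456 and 3855 CPM in pIVCL cells, against 5559 and 3484 CPM in sham cells, and Lrat at 2635, 1277 and 1795 CPM in pIVCL cells, against 1974 and 2552 CPM in sham cells. The libraries of the groups overlapped for all 3. Colec10 was at 3043, 3442 and 3478 CPM in pIVCL cells, against 1591 and 1905 CPM in sham cells, with no overlap. Few cells lay at the Dcn limit: 4 pIVCL and 3 sham members had exactly 3 Dcn molecules, and 3 pIVCL and 2 sham cells missed the rule with 2. The endothelial limit left out 36, 105 and 26 otherwise fitting pIVCL cells and 27 and 21 sham cells, and the Kupffer limit 25, 14 and 6 pIVCL cells and 19 and 31 sham cells.

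Members held medians of 4412, 4189.5 and 4657 molecules per cell in pIVCL 1, 2 and 3, and of 3465 and 5181 in sham 1 and 2, so depth per cell overlapped between the groups. Their summed molecules were 1285026, 1221187 and 484708 in pIVCL, against 268880 and 145095 in sham. Mitochondrial molecules made up medians of 7.69, 9.08 and 7.76% per pIVCL member and 7.52 and 10.1% per sham member. Sinusoidal endothelial transcripts were 0.451 to 0.493% of member molecules in pIVCL, against 0.270 to 0.275% in sham when the genes that the rule limited were left out, and without Ehd3, which itself rose, 0.115 to 0.191% of member molecules in pIVCL, against 0.104 to 0.170% in sham. When the highest cell of each library was also left out, that last share was 0.111, 0.139 and 0.162% in pIVCL, against 0.0736 and 0.0734% in sham, with no overlap. The part of these transcripts in the rises was not tested. T, NK and B cell transcripts were 0.00475 to 0.00778% of member molecules in pIVCL, against 0.0358 to 0.793% in sham, and mesothelial transcripts 0.000623 to 0.00536% of member molecules in pIVCL, against 0.0216 to 0.139% in sham. Most of these lymphocyte and mesothelial molecules in sham lay in 1 cell of a library, and without the highest cell of each library the shares were 0.00250 to 0.00673% in pIVCL, against 0.0144 to 0.0245% in sham for lymphocytes and 0.000236 to 0.000657% in pIVCL, against 0.000759 to 0.00786% in sham for mesothelium. Independent stellate markers summed to 3.41 to 3.97% of member molecules in pIVCL, against 2.43 to 3.35% in sham. Pairs of libraries shared 7 to 20 filtered barcodes, 1 of them in members of both (pIVCL 2 and sham 1).

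Stellate cells were a larger share of the cells captured from every pIVCL liver than of those from either sham liver. They were 10.5, 7.75 and 3.32% of filtered cells in pIVCL 1, 2 and 3 (exact 95% intervals 9.34 to 11.7, 6.88 to 8.69 and 2.69 to 4.05%), against 1.46 and 0.679% in sham 1 and 2 (1.13 to 1.86 and 0.444 to 0.993%). The intervals cover counting error only. Means were 7.19 ± 3.62% in pIVCL (SD, n = 3) and 1.07 ± 0.555% in sham (SD, n = 2), a difference of 6.12 percentage points and a ratio of 6.71. The ratio depends on the endothelial and Kupffer limits, which left out more cells per member kept in sham. They left out 27 and 19 cells beside 65 members in sham 1, and 21 and 31 beside 26 in sham 2. In pIVCL they left out 36 and 25 beside 273, 105 and 14 beside 270, and 26 and 6 beside 94. Shares with these cells counted were not computed. The exact two-sided permutation test gave p = 0.2, the smallest that its 10 splits allow. Within batch 2021.3 the difference was 9.42 points, at 10.5% in pIVCL 1 and a ratio of 9.80 to the mean of the sham libraries. Fibroblast-rule cells numbered 36, 20 and 35 in pIVCL and 28 and 44 in sham, or 1.06 ± 0.431% of filtered cells in pIVCL and 0.890 ± 0.366% in sham (exact permutation p = 0.6). The shares of these cells overlapped between the groups. Sinusoidal endothelial cells, the main class of the captured cells in sham, were 47.7, 43.5 and 19.1% of filtered cells in pIVCL 1, 2 and 3, against 58.5 and 58.1% in sham 1 and 2 (exact permutation p = 0.2), so that the total against which stellate cells were counted differed in makeup. A gain of stellate cells in the tissue and a better release of them from it cannot be told apart in these libraries.

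**Figure D1:**
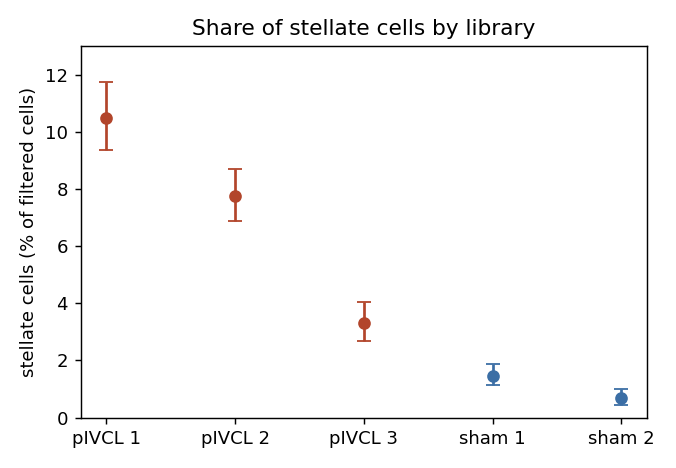
Stellate cells as a percentage of filtered cells in each library; points are libraries, bars are exact binomial 95% intervals. The 3 pIVCL libraries, at 10.5, 7.75 and 3.32%, lie above the sham libraries, at 1.46 and 0.679%.

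The gene comparison asked which transcripts differed in stellate cells after ligation. Molecules were summed over the members of each library and compared with the edgeR quasi-likelihood test, with Benjamini-Hochberg adjustment over all 7068 genes tested and a threshold of 0.05. By that test 40 genes passed (0.566%), 27 higher (0.382%) and 13 lower (0.184%) in pIVCL, with 827 at an unadjusted p under 0.05. The libraries of the groups did not overlap for any of the 40, nor for 32.7% of all genes tested. The median log2 fold change over all genes was -0.01. The number passing depended on single libraries. It was 113 without sham 1, 47 without sham 2, 72 without pIVCL 1, 7 without pIVCL 2 and 15 without pIVCL 3. Without pIVCL 2 only Igfbp3, Adm and Cxcl14 of the 27 rises passed, and without pIVCL 3 these and Fbln5 and Ccn2. Without pIVCL 1 all but Ddr2 passed. Without sham 1 16 of the 27 rises passed, and those lost were Ankrd55, Bcar1, Epha2, Tagln, Ntn4, Il34, St3gal1, Gpat2, Susd2, Ddr2 and Anxa6. Without sham 2 16 passed as well, and those lost were Ajuba, Tagln, Col4a1, Col4a2, Sod3, Il34, Ehd3, Plvap, Gpat2, Susd2 and Anxa6. In batch 2021.3 alone all 40 genes kept their direction, with log2 fold changes of 1.08 to 3.86 for the 27 rises. That batch holds 1 pIVCL library, so a fit to it takes its spread from the sham libraries only. Its estimates are given below without p-values. Below, CPM is scaled by TMM, values are listed in the order of library numbers, and estimates are log2 fold changes ± SE of pIVCL over sham by this edgeR test, with its adjusted p.

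**Figure D2:**
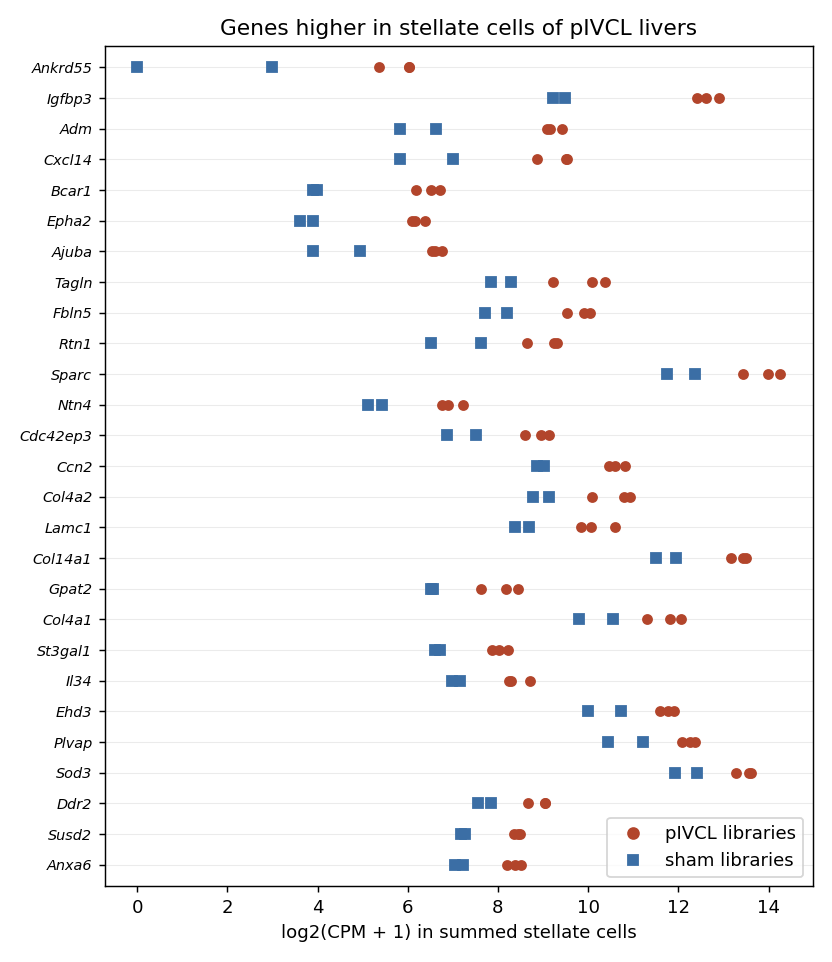
Level of the 27 genes that rose, as log2(CPM + 1) in the summed stellate cells of each library, ordered by fitted fold change; circles are the 3 pIVCL libraries and squares the 2 sham libraries. For every gene shown the pIVCL circles lie to the right of both sham squares.

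The largest fitted rise was that of Ankrd55, on 1 sham molecule, followed by those of Igfbp3, Adm and Cxcl14, which encode secreted proteins. Igfbp3, a carrier of insulin-like growth factors, was at 5417, 6235 and 7599.6 CPM in pIVCL cells, against 718 and 591 CPM in sham cells. All pIVCL libraries were far above the sham libraries. The log2 fold change was 3.29 ± 0.27 (adjusted p = 3.93e-05), and the estimate in batch 2021.3 alone was 3.07. Adm, which encodes the vasodilator peptide adrenomedullin, was at 539, 570.1 and 681 CPM in pIVCL cells, against 55.8 and 97.4 CPM in sham cells. It rose by 3.03 ± 0.31 (adjusted p = 0.000312), and the estimate within the batch was 2.89. Cxcl14, a chemokine, was at 734, 467 and 732 CPM in pIVCL cells, against 126 and 55.6 CPM in sham cells. It rose by 2.73 ± 0.35 (adjusted p = 0.00383), and the estimate within the batch was 2.97. These 3 genes passed in all 19 alternative settings run, with log2 fold changes of 3.04 to 3.66 for Igfbp3, 2.67 to 3.44 for Adm and 2.38 to 3.59 for Cxcl14. Il34, a ligand of the macrophage receptor Csf1r, was at 312, 416 and 302 CPM in pIVCL cells, against 141 and 125 CPM in sham cells (1.36 ± 0.27, adjusted p = 0.0394). Sod3, the extracellular superoxide dismutase, was among the most abundant transcripts of these cells, at 9952, 12195 and 12570.5 CPM in pIVCL cells, against 5477 and 3894 CPM in sham cells (1.30 ± 0.25, adjusted p = 0.0394). Both rises failed when 1 library was left out, with a largest adjusted p of 0.208 for Il34 without pIVCL 2 and 0.199 for Sod3 without pIVCL 2. Of the other 4 genes tested in the list of IGF-binding proteins, which also holds Htra1, none passed. Over the 5 tested genes the median was -0.54. In 3 of them every pIVCL library was below both sham libraries, as in 15.8% of all genes tested. Igfbp4 was at 595, 497 and 454 CPM in pIVCL cells, against 662 and 848 CPM in sham cells (-0.54 ± 0.23, adjusted p = 0.372). The abundant Igfbp7 was at 10856, 13075 and 12462 CPM in pIVCL cells, against 7887 and 6148 CPM in sham cells (0.79 ± 0.24, adjusted p = 0.201).

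Genes of the basement membrane and of the matrix around it rose together with Sparc. Sparc, a collagen-binding matricellular protein, was the most abundant of them at 11002, 16162 and 19643 CPM in pIVCL cells, against 5299 and 3435 CPM in sham cells (1.83 ± 0.30, adjusted p = 0.0179). Both sham libraries lay well below all pIVCL libraries. Col4a1 and Col4a2 encode the chains of type IV collagen. Col4a1 was at 2522, 3585 and 4263 CPM in pIVCL cells, against 1495 and 890.2 CPM in sham cells (1.53 ± 0.30, adjusted p = 0.0394), and Col4a2 at 1092, 1785 and 1943 CPM in pIVCL cells, against 558 and 438 CPM in sham cells (1.68 ± 0.28, adjusted p = 0.0199). The chains thus moved by a like amount. Lamc1, the gamma 1 chain of laminins, was at 922, 1068 and 1548 CPM in pIVCL cells, against 409 and 334 CPM in sham cells (1.65 ± 0.27, adjusted p = 0.0179). Ntn4 (netrin 4), which binds laminin, was at 107, 119 and 148 CPM in pIVCL cells, against 33.5 and 41.7 CPM in sham cells (1.74 ± 0.35, adjusted p = 0.0412). Of the 13 basement membrane genes tested, 3 rose and 0 fell, where 0.382% of all genes tested rose. The median log2 fold change of these 13 genes was 0.93. Nid2 (nidogen 2) did not pass, at 125, 123 and 146 CPM in pIVCL cells, against 44.6 and 62.6 CPM in sham cells (1.33 ± 0.31, adjusted p = 0.0839). With 1 library left out, the largest adjusted p was 0.113 for Sparc without pIVCL 2, 0.199 for Col4a1 without pIVCL 2, 0.139 for Col4a2 without pIVCL 2, 0.0958 for Lamc1 without pIVCL 2 and 0.171 for Ntn4 without pIVCL 2. With the rule applied after thinning to 2000 molecules the Ntn4 estimate was 0.13 (adjusted p = 0.976), and Ntn4 passed in 8 of the 19 alternative settings. In batch 2021.3 alone the log2 fold changes were 1.36 for Sparc, 1.10 for Col4a1 and 1.15 for Col4a2, each below the estimate over all libraries.

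Among other matrix genes, the fibril-associated collagen Col14a1 and the elastic fibre protein Fbln5 rose, and the classical fibrillar collagens did not pass. Col14a1 was at 9149, 11555 and 11049 CPM in pIVCL cells, against 3968 and 2921 CPM in sham cells (1.62 ± 0.25, adjusted p = 0.0121). Fbln5 (fibulin 5) was at 743, 1054 and 964 CPM in pIVCL cells, against 294 and 209 CPM in sham cells (1.85 ± 0.26, adjusted p = 0.00565). The groups stood apart for both, but the largest adjusted p with 1 library left out was 0.0958 for Col14a1 without pIVCL 2 and 0.0586 for Fbln5 without pIVCL 2. Col1a1, the main chain of type I collagen, was at 562, 599 and 836 CPM in pIVCL cells, against 495 and 549 CPM in sham cells (0.35 ± 0.24, adjusted p = 0.623). Col1a2 was at 2042, 3068 and 3154 CPM in pIVCL cells, against 1513 and 1182 CPM in sham cells (1.03 ± 0.26, adjusted p = 0.106), and Col3a1 at 1949, 2976 and 3286 CPM in pIVCL cells, against 1398 and 1141 CPM in sham cells (1.10 ± 0.26, adjusted p = 0.0913). The libraries of the groups did not overlap for any of these 3 chains, and the estimate for Col1a1 was the smallest. Of 16 collagens tested, 3 rose (Col4a1, Col4a2 and Col14a1, against 0.382% of all genes) and 0 fell, with a median of 0.80. Of 23 genes of collagen processing and crosslinking, 0 passed, with a median of 0.62. The crosslinking oxidase Lox was low, at 27.7, 64.8 and 64.0 CPM in pIVCL cells, against 3.72 and 13.9 CPM in sham cells (2.75 ± 0.78, adjusted p = 0.169), while Pcolce, an enhancer of procollagen cleavage, was at 466, 539 and 472 CPM in pIVCL cells, against 294 and 285 CPM in sham cells (0.77 ± 0.23, adjusted p = 0.196). Tnc (tenascin C) was at 85.4, 118 and 163 CPM in pIVCL cells, against 37.2 and 13.9 CPM in sham cells (2.06 ± 0.46, adjusted p = 0.0708). The collagen receptor kinase Ddr2 rose, at 528, 405 and 529 CPM in pIVCL cells, against 186 and 229 CPM in sham cells (1.24 ± 0.25, adjusted p = 0.0425, at most 0.157 for Ddr2 without pIVCL 3).

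Of 19 matrix proteases and their inhibitors tested, 0 rose and 1 fell, with a median of 0.47. Mmp2 (gelatinase A) fell, at 116, 109 and 112 CPM in pIVCL cells, against 245 and 243 CPM in sham cells (-1.12 ± 0.23, adjusted p = 0.0424), and its sham molecules came from 37 and 12 cells. With 1 library left out its largest adjusted p was 0.216 for Mmp2 without pIVCL 2. The proteoglycan Lum (lumican) was at 306, 251 and 271 CPM in pIVCL cells, against 532 and 487 CPM in sham cells (-0.89 ± 0.22, adjusted p = 0.106). The groups did not overlap for 7 of the 19 protease and inhibitor genes with higher values in pIVCL and for 4 with lower values. Over all genes tested these shares were 16.9% higher and 15.8% lower. The protease Adamts1 was at 898, 1057 and 862 CPM in pIVCL cells, against 565 and 369 CPM in sham cells (0.99 ± 0.25, adjusted p = 0.106), and the lysosomal protease Ctsl (cathepsin L) at 506, 532 and 604 CPM in pIVCL cells, against 357 and 285 CPM in sham cells (0.76 ± 0.23, adjusted p = 0.209). Timp1, an inhibitor of metalloproteases that marks fibrotic liver, was too low to be tested, at 7.32, 0 and 4.41 CPM in pIVCL cells, against 3.72 and 13.9 CPM in sham cells. Spp1 (osteopontin) was not tested either: its 382 CPM in sham 2 came from 1 cell, and the other libraries held at most 1.82 CPM.

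Of the 13 YAP and TEAD targets tested, 2 rose (Ccn2 and Ajuba, against 0.382% of all genes) and 0 fell, with a median of 0.28. Ccn2 (connective tissue growth factor), a target of YAP and TEAD, was at 1543, 1814 and 1400.4 CPM in pIVCL cells, against 469 and 515 CPM in sham cells (1.69 ± 0.24, adjusted p = 0.00565). Its estimate within batch 2021.3 was 1.68. Bcar1 (p130Cas), a docking protein of focal adhesions and no member of that list, was at 103, 71.1 and 90.4 CPM in pIVCL cells, against 14.9 and 13.9 CPM in sham cells (2.59 ± 0.46, adjusted p = 0.0273), from 4 and 2 sham molecules. Ajuba, a LIM protein that restrains the LATS kinases of the Hippo pathway, was at 96.8, 92.1 and 108 CPM in pIVCL cells, against 29.7 and 13.9 CPM in sham cells (2.03 ± 0.40, adjusted p = 0.0394). Both were counts of a few molecules in sham, so their folds are loosely bounded. Epha2, a receptor of ephrins, was at 67.5, 82.1 and 70.6 CPM in pIVCL cells, against 11.2 and 13.9 CPM in sham cells (2.58 ± 0.48, adjusted p = 0.0353). Its sham values came from 3 and 2 molecules, so its fold is loosely bounded too. Cdc42ep3, which binds Cdc42 and shapes actin and septin filaments, was at 388, 556 and 496 CPM in pIVCL cells, against 115 and 181 CPM in sham cells (1.74 ± 0.29, adjusted p = 0.0179). Anxa6 (annexin A6), a calcium-dependent membrane-binding protein, was at 294, 330.2 and 362 CPM in pIVCL cells, against 149 and 132 CPM in sham cells (1.21 ± 0.25, adjusted p = 0.0479). With 1 library left out the largest adjusted p was 0.0586 for Ccn2 without pIVCL 2, 0.067 for Bcar1 without sham 1, 0.148 for Ajuba without pIVCL 2, 0.148 for Epha2 without pIVCL 2, 0.12 for Cdc42ep3 without pIVCL 2 and 0.208 for Anxa6 without pIVCL 2. With the rule applied after thinning to 2000 molecules the Bcar1 estimate was 1.39 (adjusted p = 0.0533), and with at least 1000 molecules and at most 10% mitochondrial molecules per cell the Ccn2 estimate was 2.69 (adjusted p = 0.00117). In those stricter cells the other rises of this paragraph did not pass. Their adjusted p by the edgeR test was 0.0592 for Bcar1, 0.0737 for Ajuba, 0.0777 for Epha2, 0.0697 for Cdc42ep3 and 0.119 for Anxa6. Of 20 genes tested for adhesion and immune interaction 0 rose and 1 fell (Cdh11, on few sham cells), with a median of -0.23.

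The myofibroblast programme was uneven. Tagln (transgelin), an actin-binding protein of contractile cells, was at 595, 1316 and 1078 CPM in pIVCL cells, against 312 and 229 CPM in sham cells (1.86 ± 0.34, adjusted p = 0.0394). In batch 2021.3 alone its estimate was 1.15, and with 1 pIVCL library left out its largest adjusted p was 0.148 for Tagln without pIVCL 2. With at least 1000 molecules and at most 10% mitochondrial molecules per cell it was 3.12 (adjusted p = 0.0039). Acta2 was at 58.6, 417 and 571 CPM in pIVCL cells, against 134 and 13.9 CPM in sham cells and did not pass (2.03 ± 1.53, adjusted p = 0.715). The groups overlapped: both libraries of batch 2021.7 were above sham, while pIVCL 1 lay between the sham libraries of its own batch, and with batch as a term the estimate was negative (-0.53, adjusted p = 0.949). Tpm1 (tropomyosin 1) was at 663, 1019.8 and 1341 CPM in pIVCL cells, against 420.2 and 438 CPM in sham cells (1.23 ± 0.29, adjusted p = 0.0913). Of 18 myofibroblast genes tested, 2 rose (Tagln and Sparc, against 0.382% of all genes) and 0 fell, with a median of 0.90. Of 25 contractile and cytoskeletal genes 1 rose (Tagln), with a median of 0.38. Des was at 78.1, 109 and 104 CPM in pIVCL cells, against 74.4 and 90.4 CPM in sham cells (0.25 ± 0.31, adjusted p = 0.814).

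Position in the lobule was described through portal-side and central-side genes, of which only some portal members passed. Of 8 portal genes tested, 3 rose (Igfbp3, Il34 and Tagln, against 0.382% of all genes), with a median of 0.83. Ngfr, the nerve growth factor receptor that also marks the portal side, did not pass, at 401, 570.1 and 549 CPM in pIVCL cells, against 335 and 424 CPM in sham cells (0.43 ± 0.25, adjusted p = 0.547). Rgs4, a regulator of G-protein signals, was at 289.6, 631 and 481 CPM in pIVCL cells, against 197 and 202 CPM in sham cells (1.23 ± 0.32, adjusted p = 0.139). Of 6 central genes, 0 passed, and their median was -0.69. Adamtsl2 was at 16.3, 61.1 and 17.6 CPM in pIVCL cells, against 74.4 and 34.8 CPM in sham cells (-0.81 ± 0.69, adjusted p = 0.714). The Wnt enhancer Rspo3 was at 611, 654 and 489.6 CPM in pIVCL cells, against 904 and 445 CPM in sham cells (-0.22 ± 0.28, adjusted p = 0.822), and the oxidase Loxl1 at 24.4, 43.8 and 24.3 CPM in pIVCL cells, against 66.9 and 62.6 CPM in sham cells (-1.04 ± 0.42, adjusted p = 0.345). For Adamtsl2 and Rspo3 the groups overlapped. In summed level the portal list was 0.695 to 0.975% of member molecules in pIVCL, against 0.178 to 0.205% in sham, and the central list 0.0737 to 0.0853% of member molecules in pIVCL, against 0.0903 to 0.129% in sham. In pIVCL most of the portal sum was Igfbp3.

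Among the genes of stellate identity and retinoid storage 1 passed. Of 21 stellate markers that the rule did not read, Sod3 rose and 20 did not pass, with a median of 0.28. Ecm1 was at 9318, 8215 and 8329.6 CPM in pIVCL cells, against 7336 and 5612 CPM in sham cells (0.41 ± 0.23, adjusted p = 0.53), and Rgs5 at 1438, 1648 and 2009 CPM in pIVCL cells, against 2975 and 2184 CPM in sham cells (-0.61 ± 0.23, adjusted p = 0.329). Rgs5 was thus lower in every pIVCL library, without passing. Cygb (cytoglobin), a stellate globin, was at 718, 549 and 565 CPM in pIVCL cells, against 1127 and 793 CPM in sham cells (-0.66 ± 0.23, adjusted p = 0.28). The transcription factor Hand2 was at 1819.6, 1294 and 1471 CPM in pIVCL cells, against 1219.6 and 959.7 CPM in sham cells (0.48 ± 0.24, adjusted p = 0.446), and Lhx2, which restrains stellate activation, at 531, 483 and 417 CPM in pIVCL cells, against 580.1 and 362 CPM in sham cells (0.00 ± 0.25, adjusted p = 0.997). Of 19 genes of retinoid and lipid storage, 0 passed, with a median of 0.08. The retinal dehydrogenase Aldh1a1 was at 730.5, 504 and 487 CPM in pIVCL cells, against 349.5 and 223 CPM in sham cells (0.98 ± 0.28, adjusted p = 0.163), and Bco1, which cleaves carotene to retinal, at 312, 338 and 163 CPM in pIVCL cells, against 141 and 118 CPM in sham cells (1.06 ± 0.33, adjusted p = 0.215). Values of both genes were higher in every pIVCL library. Plin2, a coat protein of lipid droplets, was at 169, 154 and 143 CPM in pIVCL cells, against 104 and 111 CPM in sham cells (0.54 ± 0.26, adjusted p = 0.432).

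Growth factor and vasoactive genes other than Adm did not pass. Hgf, the hepatocyte growth factor for which stellate cells are a main source in liver, was at 876, 848 and 776 CPM in pIVCL cells, against 926 and 730.2 CPM in sham cells (0.00 ± 0.22, adjusted p = 0.997). Cxcl12, a chemokine that retains leukocytes, was at 7009, 4509 and 3886 CPM in pIVCL cells, against 5767 and 4047 CPM in sham cells (0.06 ± 0.28, adjusted p = 0.963). The groups overlapped for both. Pdgfrb, the receptor of the stellate mitogen PDGF-B, was at 266, 351 and 329 CPM in pIVCL cells, against 219 and 159.9 CPM in sham cells (0.71 ± 0.26, adjusted p = 0.29), and Pdgfra at 381, 344 and 406 CPM in pIVCL cells, against 539 and 508 CPM in sham cells (-0.48 ± 0.21, adjusted p = 0.404). The estimates of the 2 receptors had opposite signs. Angpt1, a ligand of the endothelial receptor Tie2, was at 179, 218 and 196 CPM in pIVCL cells, against 55.8 and 118 CPM in sham cells (1.28 ± 0.32, adjusted p = 0.106). Bmp5 was at 1328, 758 and 774 CPM in pIVCL cells, against 1253 and 786 CPM in sham cells (-0.10 ± 0.29, adjusted p = 0.926). Igf1 was low, at 23.6, 20.1 and 37.5 CPM in pIVCL cells, against 18.6 and 41.7 CPM in sham cells (-0.10 ± 0.55, adjusted p = 0.973). Of 22 genes of the PDGF, FGF, VEGF and HGF axis 0 passed (median -0.00), and of 23 of TGF-beta and BMP signalling 0 passed (median -0.09). The endothelin receptor Ednrb was at 2769, 2510.3 and 2294 CPM in pIVCL cells, against 1446 and 1161 CPM in sham cells (0.95 ± 0.23, adjusted p = 0.0913), and Ednra at 226, 195 and 154 CPM in pIVCL cells, against 383 and 264 CPM in sham cells (-0.76 ± 0.25, adjusted p = 0.247). Both receptors had groups that did not overlap, in opposite directions. Npr3, the clearance receptor of natriuretic peptides, was at 486, 449.7 and 379 CPM in pIVCL cells, against 249 and 181 CPM in sham cells (1.01 ± 0.25, adjusted p = 0.106), and Abcc9, a subunit of ATP-sensitive potassium channels, at 1336, 1057 and 1087 CPM in pIVCL cells, against 2934 and 1669 CPM in sham cells (-0.99 ± 0.25, adjusted p = 0.112). Abcc9 passed as lower without the highest cell of each gene, at -1.15 (adjusted p = 0.0411). Of 23 vasoactive genes tested, 1 rose (Adm), with a median of 0.25.

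The remaining rises had varied roles. Plvap, which forms the diaphragms of endothelial fenestrae, was at 4345, 4881 and 5291 CPM in pIVCL cells, against 2384 and 1398 CPM in sham cells (1.35 ± 0.27, adjusted p = 0.0394). Ehd3, an endocytic recycling protein that also marks sinusoidal endothelium, was at 3513, 3853 and 3103 CPM in pIVCL cells, against 1707 and 1015 CPM in sham cells (1.35 ± 0.26, adjusted p = 0.0394). Plvap was far above its level in the endothelial set, where it was at 443, 549 and 842 CPM in pIVCL, against 214 and 201 CPM in sham. Ehd3 in the endothelial set was at 4420.0, 4350.4 and 3451 CPM in pIVCL, against 5124 and 5069 CPM in sham. In the members, where the rule limited it, the defining endothelial gene Stab2 was at 19.5, 13.7 and 24.3 CPM in pIVCL cells, against 0 and 27.8 CPM in sham cells. With at most 2 molecules of the endothelial and of the Kupffer genes the Ehd3 estimate was 1.38 (adjusted p = 0.0382). Ehd3 did not pass with at least 1000 molecules and at most 10% mitochondrial molecules per cell (1.24, adjusted p = 0.0657). It also did not pass with the rule applied after thinning to 2000 molecules (0.89, adjusted p = 0.136). Rtn1 (reticulon 1), of the endoplasmic reticulum, was at 397, 600.2 and 629 CPM in pIVCL cells, against 197 and 90.4 CPM in sham cells (1.84 ± 0.33, adjusted p = 0.0353). Gpat2, an acyltransferase of glycerolipid synthesis, was at 196, 348 and 289 CPM in pIVCL cells, against 93.0 and 90.4 CPM in sham cells (1.59 ± 0.31, adjusted p = 0.0398). The sialyltransferase St3gal1 was at 234, 298 and 258 CPM in pIVCL cells, against 96.7 and 104 CPM in sham cells (1.40 ± 0.26, adjusted p = 0.0394). Susd2, a membrane protein with a sushi domain, was at 328, 348 and 359 CPM in pIVCL cells, against 145 and 153 CPM in sham cells (1.21 ± 0.24, adjusted p = 0.0404). Ankrd55 passed (adjusted p = 0.0404) on 148 molecules in pIVCL cells, against 1 molecule in sham cells. The ratio per molecule counted was 20.5, with an exact 95% counting interval of 3.62 to 815. With 1 library left out, the largest adjusted p was 0.199 for Plvap without pIVCL 2, 0.208 for Ehd3 without pIVCL 2, 0.148 for Rtn1 without pIVCL 2, 0.206 for Gpat2 without pIVCL 2, 0.185 for St3gal1 without pIVCL 2, 0.199 for Susd2 without pIVCL 2 and 0.182 for Ankrd55 without pIVCL 2.

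The rises of the abundant genes were spread over most cells. After thinning every cell to 1500 molecules, which left out 8 cells of pIVCL 3, the median for Igfbp3 was 7, 8 and 10 molecules per cell in pIVCL, against 1 and 0 in sham. An Igfbp3 molecule was found in 97.1, 96.3 and 97.7% of pIVCL cells, against 60 and 46.2% of sham cells (97.8, 98.5 and 98.9% of pIVCL cells, against 73.8 and 65.4% of sham cells before thinning). In endothelial cells the thinned shares were 2.18, 0.593 and 0.743% of pIVCL cells, against 0.192 and 0.135% of sham cells. The stellate shares thus lay far above the endothelial shares in both groups. Median Sparc was 14, 20 and 24.5 molecules per cell in pIVCL, against 7 and 5 in sham, and median Col14a1 13, 16 and 16 molecules per cell in pIVCL, against 6 and 4 in sham. By contrast Ecm1, a marker that did not pass, had medians of 13, 11.5 and 12 molecules per cell in pIVCL, against 13 and 9 in sham. Adm was found in a smaller part of the cells, 40.7, 46.3 and 55.8% of pIVCL cells, against 7.69 and 15.4% of sham cells (66.7, 70 and 80.9% of pIVCL cells, against 13.8 and 26.9% of sham cells before thinning), and Cxcl14 in 45.8, 38.9 and 57.0% of pIVCL cells, against 16.9 and 7.69% of sham cells (70.0, 57.0 and 80.9% of pIVCL cells, against 30.8 and 23.1% of sham cells before thinning). Endothelial cells expressed Adm too, with thinned shares of 19.2, 16.6 and 21.7% of pIVCL cells, against 5.50 and 7.77% of sham cells. Acta2 was found in 2.93, 17.4 and 26.7% of pIVCL cells, against 3.08 and 3.85% of sham cells (6.59, 25.9 and 37.2% of pIVCL cells, against 3.08 and 3.85% of sham cells before thinning), and Tagln in 42.9, 62.6 and 48.8% of pIVCL cells, against 15.4 and 30.8% of sham cells (62.6, 82.6 and 64.9% of pIVCL cells, against 27.7 and 50% of sham cells before thinning). Before thinning, median depth was close between the sets in pIVCL, at 4189.5 to 4657 molecules per stellate cell and 4380 to 4766 per endothelial cell. It was also close in sham 2, at 5181 against 5039, but in sham 1 stellate cells were shallower, at 3465 against 5265.

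**Figure D3:**
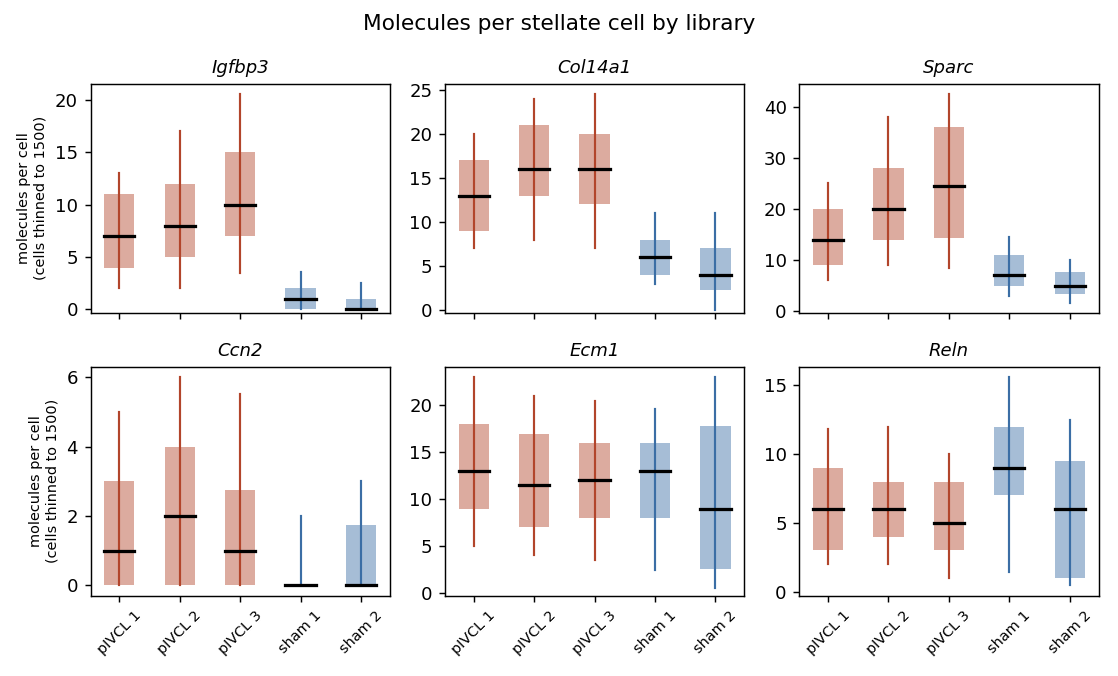
Molecules per stellate cell, after thinning to 1500 molecules, for 4 genes that rose (Igfbp3, Col14a1, Sparc, Ccn2) and 2 used as comparison, Ecm1 and the rule gene Reln; black lines are medians, boxes the quartiles and vertical lines the span between the 10th and 90th percentile of cells. The Igfbp3 medians are 7, 8 and 10 in pIVCL libraries, against 1 and 0 in sham libraries.

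Within the pIVCL libraries the molecules of some pairs of genes varied together from cell to cell. Across thinned cells of pIVCL 1, 2 and 3 (273, 270 and 86 cells, which share a library), Spearman's rho between Sparc and Col4a1 was 0.46, 0.52 and 0.42. It was 0.21, 0.36 and 0.51 between Igfbp3 and Col14a1, and 0.14, 0.40 and 0.47 between Tagln and Acta2. Igfbp3 and Ngfr, both portal markers, had -0.02, 0.01 and -0.01. Ngfr was found in only 37.0, 40 and 47.7% of these cells, so its coefficients cannot show whether these markers vary apart. Igfbp3 had 0.10, 0.09 and 0.28 with Adm and 0.14, 0.06 and 0.26 with Cxcl14, which are sparse counts. These coefficients are descriptions of cells within a library.

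The 13 genes that were lower in pIVCL rested, apart from Mmp2 and in part Srgn, on very few sham cells. Slpi, a secreted protease inhibitor, had 2 molecules over all pIVCL members, against 97 and 94 in sham 1 and 2, and in each sham library all of them lay in 1 cell. Its ratio of pIVCL over sham was 0.00145, with an exact 95% counting interval of 0.000174 to 0.00531 that takes molecules as independent. Upk3b (uroplakin 3B), a mesothelial gene, had 1 molecule in pIVCL, against 16 and 39 in sham, again in 1 cell of each library. Wt1, a transcription factor of mesothelium, was at 1.63, 7.30 and 6.62 CPM in pIVCL cells, against 33.5 and 118 CPM in sham cells (adjusted p = 0.0394), with 69.2% of the sham molecules in the highest cell of each library. Cav1 (caveolin 1), with 3 pIVCL and 30 sham molecules, had 96.7% of the sham molecules in such cells. Cdh11 (cadherin 11), with 3 pIVCL and 20 sham molecules, had 95%, and Mgp (matrix Gla protein) 94.4%. The proliferation genes Mki67 (3.25, 1.82 and 0 CPM in pIVCL cells, against 78.1 and 48.7 CPM in sham cells) and Birc5 (0.813, 1.82 and 2.21 CPM in pIVCL cells, against 26.0 and 48.7 CPM in sham cells) had 89.3 and 100% of their sham molecules there. Srgn (serglycin), a granule proteoglycan of blood cells, was at 16.3, 25.5 and 6.62 CPM in pIVCL cells, against 189.6 and 132 CPM in sham cells (-3.20 ± 0.39, adjusted p = 0.00235), with 54.3% of sham molecules in the highest cells. The rest were Il2rg, a subunit of cytokine receptors of lymphocytes, and the surface proteins Cd24a and Cd200, at 57.1, 72.2 and 70.6%. Sums without the highest cell of each gene in each library, an alternative chosen after the data were seen, gave 32 rises and 3 falls. Of the 13 falls only Srgn (-2.83, adjusted p = 0.0176) and Mmp2 (-1.24, adjusted p = 0.0357) were still testable and passed, while 25 of the 27 rises passed. Sums without captures that held transcripts of another cell type, which left 269, 268 and 93 pIVCL cells and 62 and 24 sham cells, gave 40 rises and 11 falls, with 25 of the 27 rises and 3 of the 13 falls (Srgn, Mmp2 and Il2rg) among them. Just short of the threshold were falls of Atp2b4, a plasma membrane calcium pump, at 17.1, 18.2 and 19.8 CPM in pIVCL cells, against 63.2 and 76.5 CPM in sham cells (-1.91 ± 0.40, adjusted p = 0.0527), and of the kinase gene Pim1, at 21.1, 40.1 and 37.5 CPM in pIVCL cells, against 85.5 and 167 CPM in sham cells (-1.89 ± 0.40, adjusted p = 0.0527).

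**Figure D4:**
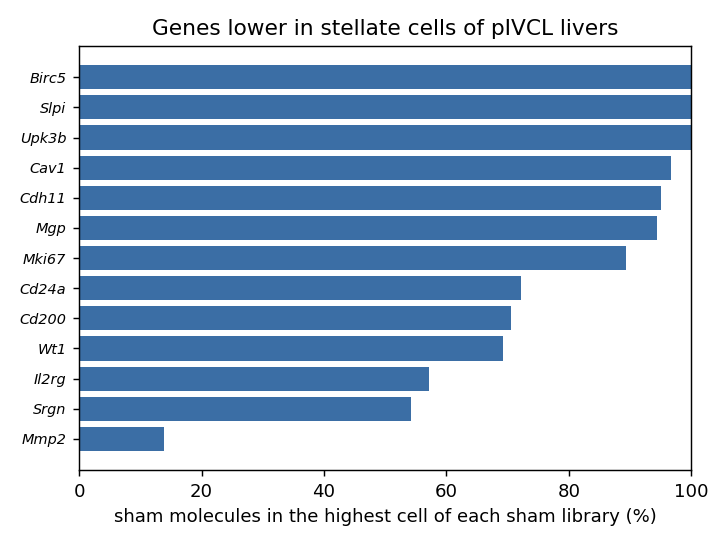
For the 13 genes lower in pIVCL, the percentage of their sham molecules that lay in the single highest cell of each sham library. Slpi, Upk3b and Birc5 reach 100%, and Mmp2 is the lowest bar at 13.9%.

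Other lists showed few or no calls. Of 9 cell cycle genes tested, of 20 listed, 2 fell (Mki67 and Birc5, on the few cells named above), against 0.184% of all genes. The list summed to 0.0658 to 0.0860% of member molecules in pIVCL, against 0.143 to 0.165% in sham. In sham 1, 117 of the 384 molecules lay in 1 cell, and in sham 2, 113 of 239. Without the highest cell of each library the sums were 0.0611 to 0.0853% in pIVCL, against 0.0927 to 0.125% in sham. Medians per cell overlapped, at 0.0531 to 0.0790% in pIVCL and 0.0717 and 0.0859% in sham. No gene passed among 27 interferon-response genes (median 0.21), 20 immediate-early and stress genes (-0.14), 11 complement genes (0.04), 12 Wnt and R-spondin genes (-0.00) and 20 guidance and neural genes (-0.03). Among 20 hypoxia and glycolysis genes Adm alone rose (median 0.03). Among 29 stellate transcription factors Wt1 alone passed, lower in pIVCL (median 0.19). Hepatocyte transcripts summed to 0.303 to 0.429% of member molecules in pIVCL, against 0.147 to 0.373% in sham, and 0 of 27 passed (median 0.41). In sham 1, 686 of the 1002 molecules lay in 1 cell, and without the highest cell of each library the sums were 0.297 to 0.335% in pIVCL, against 0.113 to 0.120% in sham, with no overlap. Alb (albumin), of hepatocytes, was at 1014, 733 and 717 CPM in pIVCL cells, against 599 and 369 CPM in sham cells (0.75 ± 0.27, adjusted p = 0.281). It passed without the highest cell of each gene, at 2.03 (adjusted p = 0.00165), and without captures that held transcripts of another cell type, at 1.49 (adjusted p = 0.0452), as did the plasma protein gene Ahsg without those captures (1.48, adjusted p = 0.0498). Hepatocyte transcripts thus moved with the rises in those sums. Erythroid transcripts were 0.00591 to 0.230% of member molecules in pIVCL, against 0.00186 to 0.00276% in sham, highest in pIVCL 2, and 0 of 3 passed. Kupffer and macrophage transcripts without the genes that the rule limited were 0.0265 to 0.0848% of member molecules in pIVCL, against 0.0134 to 0.0703% in sham, and 0 of 8 passed. The part of these transcripts in the rises was not tested.

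Fibroblast-rule cells of the same libraries, the most similar cells in the series, differed from stellate cells in the response of 3 genes. In 1 edgeR model with library as a block, the pIVCL effect in stellate cells differed from that in fibroblast-rule cells for 3 of 6325 genes (0.0474%), each with a lower effect in stellate cells, with 375 at an unadjusted p under 0.05. They were Slpi, the scavenger receptor Scara3 and Mgp, at differences of -8.93 ± 0.95 (adjusted p = 0.0326), -8.18 ± 1.10 (adjusted p = 0.0123) and -4.01 ± 0.56 (adjusted p = 0.0123) on the log2 scale. The stellate effects of all 3 rested on single sham cells, with 100, 100 and 94.4% of the sham molecules of Slpi, Scara3 and Mgp in the highest cell of each library. Slpi averaged 0.595 CPM in pIVCL and 517 CPM in sham stellate cells, and 1166 CPM in pIVCL and 1287 CPM in sham fibroblast-rule cells. Of the 27 stellate rises, 22 were tested in fibroblast-rule cells alone, where 0 passed and 20 had the same sign. No gene of 5469 passed as higher there (0%), with 404 at an unadjusted p under 0.05 in either direction. For none of the 27 did the difference between the sets pass, which does not show that the sets responded alike. Igfbp3 in fibroblast-rule cells was at 410.0, 1645 and 343 CPM in pIVCL, against 143 and 67.4 CPM in sham. Without pIVCL 2 no gene differed between the sets (300 at an unadjusted p under 0.05), and without sham 1 76 did.

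Against sinusoidal endothelial cells, 187 of 11240 genes (1.66%) had a different pIVCL effect by the same edgeR model, 85 of them with a higher and 102 with a lower effect in stellate cells. The endothelin receptor gene Ednrb averaged 2498 CPM in pIVCL and 1224 CPM in sham stellate cells, but 24.5 CPM in pIVCL and 127 CPM in sham endothelial cells, a difference of 3.40 ± 0.31 (adjusted p = 1.77e-05). Timp2, an inhibitor of metalloproteases, averaged 1120.2 CPM in pIVCL and 700.0 CPM in sham stellate cells, and 7.91 CPM in pIVCL and 28.2 CPM in sham endothelial cells (2.52 ± 0.25, adjusted p = 9.16e-07). Npr3 (2.47 ± 0.38, adjusted p = 0.000533), the collagen Col8a1 (5.03 ± 0.86, adjusted p = 0.00144) and Thbs2, thrombospondin 2 (2.49 ± 0.48, adjusted p = 0.00437), had at most 4.54 CPM in the endothelial set of either group. Each of these 5 genes had a positive stellate estimate that did not pass by itself. In the other direction, the transporter gene Slc16a9 averaged 146 CPM in pIVCL and 216 CPM in sham stellate cells, and 23.4 CPM in pIVCL and 1.00 CPM in sham endothelial cells (-5.03 ± 0.38, adjusted p = 1.03e-08). Slpi, Igfbp6, Cav1 and the lactate transporter gene Slc16a1 had differences of -9.15 ± 0.86 (adjusted p = 4.63e-07), -7.27 ± 1.60 (adjusted p = 0.014), -5.13 ± 0.81 (adjusted p = 0.00144) and -5.07 ± 0.76 (adjusted p = 0.00083). Each of these 4 had under 3 CPM in pIVCL stellate cells, and 100, 100, 96.7 and 90.3% of their sham molecules lay in the highest cell of each library. The number of differing genes was 79 without sham 2, 217 without sham 1, and 176 to 255 without 1 pIVCL library.

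Of the 27 stellate rises, 24 were tested in endothelial cells alone and 9 passed there as higher, where 201 of all 11570 genes did (1.74%). For 8 of the 27 the stellate rise was the larger by the test of the difference, where 85 of all 11240 genes had a higher stellate effect. The 27 were chosen for their rise in stellate cells of these data, which favours a larger stellate effect. Those 8 were Adm at 1.22 (adjusted p = 0.0355), Bcar1 at 2.42 (adjusted p = 0.00413), Sparc at 1.17 (adjusted p = 0.00437), Cdc42ep3 at 2.18 (adjusted p = 0.00101), Col4a1 at 1.13 (adjusted p = 0.00846), Col4a2 at 0.95 (adjusted p = 0.0246), Ehd3 at 1.77 (adjusted p = 0.000105) and St3gal1 at 1.87 (adjusted p = 0.000533). Adm rose in both sets, and in endothelial cells it was at 196, 141 and 187 CPM in pIVCL, against 38.6 and 59.6 CPM in sham. Ccn2 in endothelial cells was at 1819, 686 and 1665 CPM in pIVCL, against 39.2 and 83.0 CPM in sham, and its difference between the sets did not pass (-2.77, adjusted p = 0.351). Igfbp3 and Col14a1 also passed in the endothelial set, but at levels of 14.2, 5.18 and 6.19 CPM in pIVCL, against 1.01 and 1.13 CPM in sham for Igfbp3, and of 29.9, 16.6 and 9.97 CPM in pIVCL, against 2.73 and 3.56 CPM in sham for Col14a1. Both were a small part of the stellate level and were highest in pIVCL 1, the library with the largest share of stellate cells. Fbln5 and Sod3 passed there at low levels too. Fbln5 was at 14.7, 13.4 and 18.6 CPM in pIVCL, against 2.66 and 1.39 CPM in sham. Sod3 was at 21.9, 14.2 and 9.63 CPM in pIVCL, against 3.59 and 4.86 CPM in sham. The part of free stellate RNA in the endothelial values of Igfbp3, Col14a1, Fbln5 and Sod3 was not tested.

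**Figure D5:**
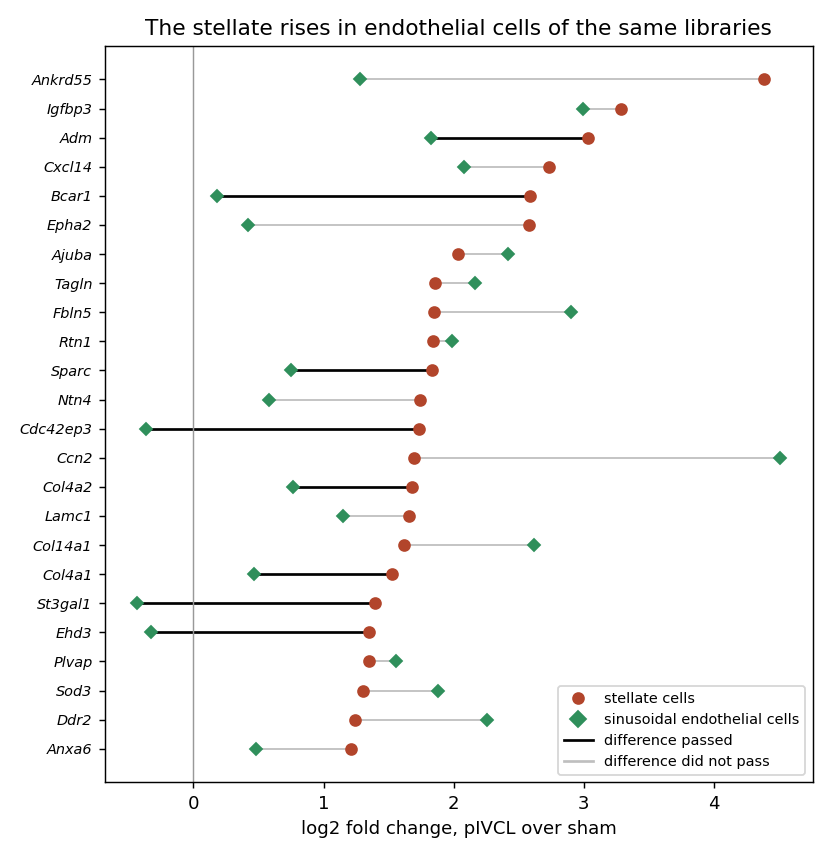
Log2 fold change of pIVCL over sham for the 24 of 27 stellate rises tested in endothelial cells; circles are stellate cells, diamonds sinusoidal endothelial cells of the same libraries, and black connectors mark differences that passed. Bcar1, Cdc42ep3, St3gal1 and Ehd3 lie near or below 0 in endothelial cells.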

How the data were processed

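The authors deposited molecule counts for each gene in each cell, with molecular identifiers corrected, made with version 1.9.1 of the BD WTA Rhapsody pipeline, per the file headers, on GRCm39, per the submitters' processing notes. The aligner is not given in the sources used here. Libraries held 2680 to 5000 cells and 12448260 to 30523228 molecules. Cells with at least 500 molecules, at least 200 genes and at most 25% mitochondrial molecules were kept. The automatic Scrublet threshold (scanpy 1.11.5) marked 14 cells in all and was not used. Removing the 3% of highest scores was an alternative.

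Member counts were summed per library and tested in edgeR 4.0.16 (quasi-likelihood, robust, TMM, filterByExpr), with Benjamini-Hochberg adjustment at 0.05. CPM is molecules per 1000000. SE is the log2 fold change over the square root of F. Differences between cell sets were interactions with library as a block, and shares were tested by exact permutation (scipy 1.17.1). Members, lists and tests were chosen with earlier results of these data known. Named genes were the 15 largest rises and falls that passed without overlap at a mean log2 CPM of at least 5, leaving out other cells' lists, the next by p up to 8 in a direction with fewer, up to 4 lowest-p members of each list, 5 per direction in each interaction and a fixed set. Plvap, Gpat2, St3gal1, Susd2, Ddr2, Anxa6, Ehd3, Scara3 and the falls outside it were named after their values were seen.

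On simulated data with 200 genes changed and 6694 tested, the stellate test called 0, 15.9 and 72.1% of genes changed by 1.5, 2 and 4-fold, and 0.138% of unchanged genes. Alternatives were DESeq2 1.42.0 size factors and Wald tests, no filter, batch terms, a replicate block, leaving out each library, stricter cells and rules, and 2 gene sums chosen after the data were seen.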

Additional observations from a re-analysis of the deposited data

Results flagged for a closer look

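The response to pIVCL differed between cell sets for 3 genes between stellate and fibroblast-rule cells and for 187 genes between stellate and sinusoidal endothelial cells, each by an edgeR interaction test with Benjamini-Hochberg adjustment. Against fibroblast-rule cells the log2 differences were -8.93 for Slpi, -8.18 for Scara3 and -4.01 for Mgp. Their stellate effects rest on single sham cells, which held 100, 100 and 94.4% of the sham molecules, and no gene differed without pIVCL 2. Against endothelial cells the effect in stellate cells was higher by 5.03 for Col8a1, 3.40 for Ednrb, 2.52 for Timp2, 2.49 for Thbs2 and 2.47 for Npr3. The log2 differences in the other direction were -9.15 for Slpi, -7.27 for Igfbp6, -5.13 for Cav1, -5.07 for Slc16a1 and -5.03 for Slc16a9. The highest cell of each sham library held 100, 100, 96.7 and 90.3% of the sham molecules of the first 4. For Slc16a9 and Ednrb both sets held molecules in every group, at means of 1.00 to 216 CPM and 24.5 to 2498 CPM.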

How the results depend on the processing

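Of the main count of 40 genes (27 higher and 13 lower), no expression filter gave 287 (144 and 143) and DESeq2's Wald test 82 (48 and 34). Batch as a term gave 10 (5 and 5), and members without a fibroblast-rule molecule 24, 14 of them higher. The rule applied after thinning to 2000 molecules gave 66, 48 of them higher, and stricter cell filters gave 8 lower. In batch 2021.3 alone, where the lone pIVCL library is assumed to vary like sham, 7 were higher and 25 lower. Without the highest cell of each gene 32 were higher and 3 lower. Leaving out each library gave 7 to 113 genes, 3 to 52 higher and 4 to 64 lower. The 40 genes kept their sign in every setting that tested them. Labels give groups the same replicate numbers. Deviations of same-numbered libraries correlated at 0.0923 and 0.0554, but with so few libraries these values cannot decide whether the libraries are paired. With a replicate block 27 genes passed, 8 higher and 19 lower, 15 of the 40 among them.

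The 3 genes that differed from fibroblast-rule cells became 92 without a filter, 6 in batch 2021.3 alone, 6 with stricter endothelial and Kupffer limits and 0 to 76 with 1 library left out. The 187 that differed from endothelial cells became 379, 74 (batch 2021.3 alone) and 79 to 255. The share difference of 6.12 points ranged over 4.46 to 8.05 with 1 library left out and kept its direction in every setting.

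Log2 fold changes of genes that did not pass changed sign in some settings, with Acta2 at -0.53 and -0.46, Col1a1 at -0.041, Des at -0.047 and -0.032, Hgf at -0.20, -0.013, -0.18, -0.0013, -0.15 and -0.15, Cxcl12 at -0.050, -0.027, -0.064 and -0.11, Igf1 at 0.68 and 0.31, Bmp5 at 0.37, 0.40 and 0.018 and Lhx2 at -0.18, -0.014, -0.0032, -0.0026, -0.14 and -0.13. With 1 library left out, the ranges were -0.12 to 0.26 for Hgf, -0.23 to 0.41 for Cxcl12, -0.59 to 0.46 for Rspo3, -0.64 to 0.49 for Igf1, -0.42 to 0.35 for Bmp5 and -0.24 to 0.47 for Lhx2. For the genes whose value changed with a setting, the cause was not tested. In the simulated data the test called 0% of 1.5-fold and 15.9% of 2-fold changes, so changes of up to 2-fold were mostly not detectable.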
